A study of Mus musculus with 16 samples.

Results

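The 9 genes described here encode the layered scaffold under excitatory synapses, a calmodulin-binding protein of dendritic spines and a pair of metabotropic glutamate receptors, all measured in mouse striatum. They were taken by name: Dlg4, Dlgap1, Dlgap2, Dlgap3, Shank1, Shank3, Nrgn, Grm3 and Grm5. Every probe set to which the array's annotation gives exactly 1 of these symbols was kept, which made 17 of the 34945 probe sets with 1 symbol and 9 of 18193 genes. All 9 symbols were on the array, with 1 probe set each for Shank1, Shank3, Dlgap2, Dlgap3, Nrgn and Grm3, 2 for Grm5, 3 for Dlg4 and 6 for Dlgap1.

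RNA of whole striatum was hybridized to Affymetrix Mouse Genome 430 2.0 arrays, giving 1 level per probe set on a log2 scale. The 4 genotypes, all on a B6xCBA strain background, were R6/2 x DREAM+/-, R6/2, DREAM+/- and wild type, with 4 biological replicates each and 16 arrays in all. R6/2 mice carry the start of the human huntingtin gene with an expanded CAG repeat, driven by the human huntingtin promoter in many tissues, and serve as a model of Huntington's disease. By their label, DREAM+/- animals have a knockout allele of Kcnip3, the gene of the calcium-binding transcriptional repressor DREAM, beside an intact allele, and R6/2 x DREAM+/- animals came from crossing DREAM knockout mice with R6/2 mice. The age and sex of the animals, the deleted stretch of Kcnip3 and whether an array held RNA of 1 animal are not stated in the labels. The labels name striatal neurons as the cell type, but whole tissue also holds glia and other neurons. In such bulk samples, fewer cells of a type and less RNA per cell cannot be told apart.

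At excitatory synapses, Dlg4 (the protein PSD-95) anchors glutamate receptors at the membrane. Dlgap proteins (also called GKAP or SAPAP) bind Dlg4 on one side and Shank proteins on the other, and Shank proteins reach, through Homer, the group I metabotropic receptors such as mGluR5, the product of Grm5. In the striatum these proteins sit in the spines of medium spiny neurons, which receive glutamate from cortex and thalamus, and mouse mutants of Shank3 or Dlgap3 groom themselves excessively. Nrgn, neurogranin, binds calmodulin when calcium is low, and Grm3 encodes mGluR3, a Gi-coupled receptor found on glia as well as on neurons. DREAM represses transcription from sites called DRE, whose core is GTCA, and releases them when calcium rises.

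Kcnip3, the targeted gene, was lower in both DREAM+/- genotypes, although a probe set outside the deleted stretch would not check the labels. Its brighter probe set read 7.43 to 7.67 in R6/2 x DREAM+/- and 9.04 to 9.23 in R6/2, and 7.72 to 7.82 in DREAM+/- and 9.41 to 9.89 in wild type (log2). The log2 differences on it were -1.55 in R6/2 x DREAM+/- against R6/2 and -1.90 in DREAM+/- against wild type, and on its dimmer probe set they were -2.59 and -2.95 (limma adjusted p from 3.74e-10 to 8.64e-08). All 4 were larger falls than the 1 log2 unit that losing 1 of 2 equally active alleles would give. The levels therefore do not show that an intact allele is present, and DREAM+/- is used below as the labels give it. Kcnip3 was also lower in R6/2 than in wild type, by -0.55 on the brighter and -0.54 on the dimmer probe set (limma adjusted p = 0.000775 and 0.00688). In R6/2 x DREAM+/- against DREAM+/- it was -0.21 and -0.18 and did not pass (limma adjusted p = 0.219 and 0.473). Medium spiny neuron markers were bright on every array: the mean of 15 markers lay between 11.26 and 11.63 in R6/2 x DREAM+/-, 11.38 and 11.53 in R6/2, 11.92 and 12.03 in DREAM+/- and 12.02 and 12.17 in wild type. Of these markers, 13 were lower in R6/2 than in wild type, where 7.44% of all genes were lower. In R6/2 x DREAM+/- against DREAM+/-, 13 were lower, where 4.71% of all genes were lower. The mean of 11 cortical projection neuron markers, all at or above the 40th percentile of brightness and some also expressed in striatum, lay between 8.38 and 8.70 in R6/2 x DREAM+/-, 7.86 and 8.31 in R6/2, 8.55 and 8.77 in DREAM+/- and 8.46 and 8.67 in wild type. R6/2 replicate 1 had the lowest cortical marker mean (7.86) and the highest mean of 3 Y-linked genes (7.63, against 5.33 to 6.91 on the other arrays). The lowest Y-linked mean (5.33), and the highest medium spiny neuron mean among the R6/2 x DREAM+/- arrays, belonged to R6/2 x DREAM+/- replicate 3. Wild-type replicate 3 was the highest wild-type array for Grm3, Dlgap2 and 1 probe set of Grm5. The same held for Dlg4 on 1419581_at and for Dlgap1 on 1440639_at and 1443508_at. It also had the highest wild-type mean of the Y-linked genes (6.80) and of microglia markers (8.93). Its means of medium spiny neuron markers (12.02) and cortical markers (8.46) were the lowest of the wild-type arrays.

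Against wild type, R6/2 striatum had less RNA of most of the scaffold and of Nrgn. Of 17 member probe sets, 8 were lower and 0 were higher, where 6.42% of all probe sets were lower and 6.74% higher (limma, Benjamini-Hochberg adjusted p under 0.05). The 8 belonged to 7 genes, but for Dlgap1 and Grm5 the brightest probe set was not among them. The median member difference was -0.32, against 0.02 over all probe sets (log2). In R6/2 x DREAM+/- against DREAM+/-, 6 probe sets of 5 genes were lower and 0 higher, against a background of 4.01% lower and 2.91% higher, and the member median was -0.27 (all probe sets, 0.01). These 2 comparisons share no array. The groups did not overlap, with the first-named lower, for 8 probe sets in R6/2 against wild type (7.91% of all) and for 6 in R6/2 x DREAM+/- against DREAM+/- (5.81% of all).

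In the 2 comparisons that by label vary only the DREAM genotype, a few members were higher and 0 were lower. Other differences between these groups were not excluded: the mean of 3 Y-linked genes lay at 6.54 to 6.91 in DREAM+/- and 5.47 to 6.80 in wild type. In R6/2 x DREAM+/- against R6/2, Dlgap2, Grm3, Nrgn and 1 probe set of Dlgap1 were higher, 4 of 17, and 0 were lower, where 3.53% of all probe sets were higher and 4.22% lower. For 3 of them (Dlgap2, Grm3 and Nrgn) the groups did not overlap, as for 5.71% of all probe sets in this direction. In DREAM+/- against wild type, Dlgap2 alone was higher among the 17 and 0 were lower, against 1.15% higher and 1.11% lower over all probe sets. The groups did not overlap, with DREAM+/- higher, for 2 Dlgap1 probe sets that did not pass (3.87% of all probe sets). Set against wild type, R6/2 x DREAM+/- gave 7 lower and 1 higher, with a background of 8.5% lower and 7.11% higher. The comparisons with R6/2 x DREAM+/- share its arrays, as do those with wild type and with R6/2, so their values for a member are not independent of each other. No member passed the interaction test, which asks whether the R6/2 difference depends on the DREAM genotype: limma called 0 of 17 members and 0 of 34945 probe sets, with 1 and 2121 at an unadjusted p under 0.05, and the alternative settings called 0 or 1 probe set overall (0.0% called).

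**Figure D1:**
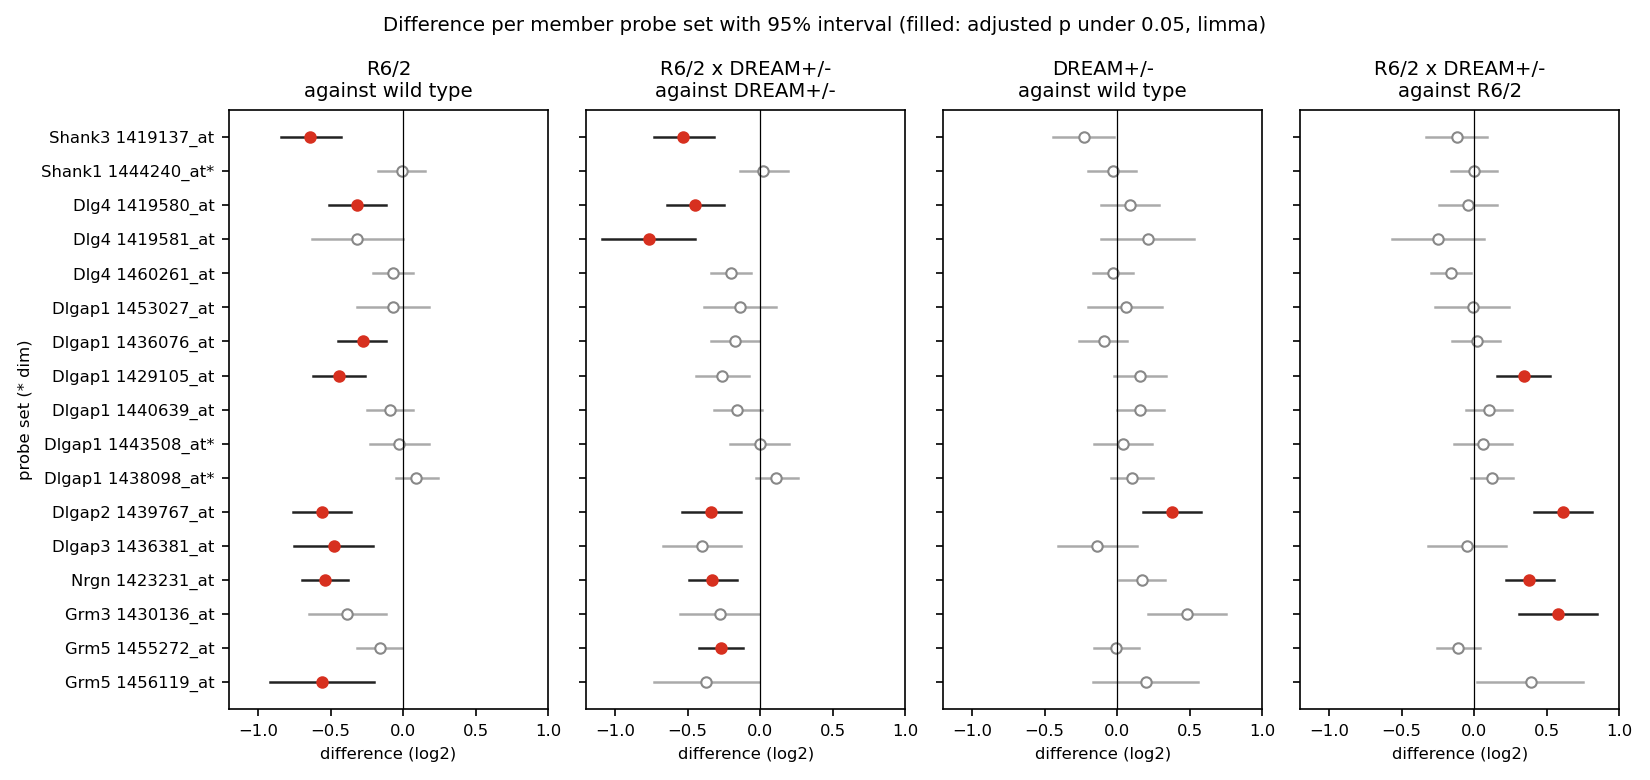
Difference of every member probe set in 4 comparisons (log2, x axis) with its 95% interval from limma; filled points passed an adjusted p under 0.05, and an asterisk marks a probe set under the 40th percentile of brightness. Shank3, Dlg4 and Dlgap3 lie left of 0 in both R6/2 comparisons and did not pass in R6/2 x DREAM+/- against R6/2 (-0.25 to -0.04), where Dlgap2, Grm3, Nrgn and 1 Dlgap1 probe set lie to the right.

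Members thus fell into different patterns, and the promoters of 4 of them are shown because DREAM binds DNA at GTCA and because Shank3 and Dlgap3 were not called for the DREAM genotype in any comparison while Nrgn and Grm3 were called in R6/2 x DREAM+/- against R6/2. Each is 300 bases from RefSeq (GRCm38.p6), 250 before an annotated start of transcription and 50 after it. They are written along the gene's strand, with GTCA or its reverse complement TGAC in capitals. Shank3 is at chr15:89499358-89499657 (+ strand), Dlgap3 at chr4:127172630-127172929 (+), Nrgn at chr9:37552696-37552995 (- strand) and Grm3 at chr5:9725303-9725602 (-). The Shank3 and Dlgap3 windows lie inside the gene spans, which begin at chr15:89493013 and chr4:127168305. Those of Nrgn and Grm3 lie at the outer start of the gene, so the 4 windows are not fully alike.
Shank3: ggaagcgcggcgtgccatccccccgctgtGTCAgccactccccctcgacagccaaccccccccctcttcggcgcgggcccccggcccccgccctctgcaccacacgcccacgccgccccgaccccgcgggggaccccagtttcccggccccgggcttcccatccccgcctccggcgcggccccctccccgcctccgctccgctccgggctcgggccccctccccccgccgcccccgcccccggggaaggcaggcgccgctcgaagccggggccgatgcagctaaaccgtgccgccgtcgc
Dlgap3: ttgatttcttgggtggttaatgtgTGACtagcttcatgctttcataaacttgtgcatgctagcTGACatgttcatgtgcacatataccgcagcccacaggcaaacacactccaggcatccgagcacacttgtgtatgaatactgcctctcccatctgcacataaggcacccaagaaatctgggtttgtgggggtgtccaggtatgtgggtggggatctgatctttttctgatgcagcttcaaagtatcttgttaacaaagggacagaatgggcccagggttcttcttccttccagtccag
Nrgn: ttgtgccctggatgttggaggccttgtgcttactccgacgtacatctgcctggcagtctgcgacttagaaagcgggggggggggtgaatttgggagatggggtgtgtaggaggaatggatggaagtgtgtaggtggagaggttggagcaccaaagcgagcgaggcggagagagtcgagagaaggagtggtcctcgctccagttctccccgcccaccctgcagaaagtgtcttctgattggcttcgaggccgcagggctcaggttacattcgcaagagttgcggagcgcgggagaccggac
Grm3: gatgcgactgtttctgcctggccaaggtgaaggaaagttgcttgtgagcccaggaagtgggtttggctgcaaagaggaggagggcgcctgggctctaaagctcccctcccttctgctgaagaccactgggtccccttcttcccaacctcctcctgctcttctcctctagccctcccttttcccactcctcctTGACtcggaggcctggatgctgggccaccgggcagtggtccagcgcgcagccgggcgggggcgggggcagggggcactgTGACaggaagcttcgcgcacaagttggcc
GTCA was found once in the Shank3 window, 2 times in Dlgap3, 2 times in Grm3 and 0 times in Nrgn, both strands searched. Of 32851 RefSeq promoters of this length, 85.2% held it, with a mean of 2.09 matches, so a match of 4 letters sets none of the 4 genes apart. The GC share was 81.0% for Shank3, 47.7% for Dlgap3, 59.3% for Nrgn and 63.7% for Grm3. In the same order, the GC-box letters GGGCGG (or CCGCCC) matched 4, 0, 1 and 2 times. Over all promoters the mean was 0.77 matches, and 35.7% had at least 1 match. Of the 9 member genes, 6 matched the RefSeq table, with 9 entries in all.

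Shank3, which links the scaffold to Homer and to the actin cytoskeleton, had the largest R6/2 difference among the members' means against wild type. Its probe set 1419137_at read 10.13, 10.41, 10.62 and 10.21 in R6/2 x DREAM+/-, 10.48, 10.56, 10.43 and 10.39 in R6/2, 10.86, 10.92, 10.85 and 10.84 in DREAM+/-, and 10.99, 11.15, 10.91 and 11.35 in wild type. Every array with the transgene lay below every array without it. R6/2 held 64.4% of the wild-type level (log2 -0.64, 95% interval -0.84 to -0.43, limma adjusted p = 0.000377). R6/2 x DREAM+/- held 69.5% of the DREAM+/- level (-0.53, -0.73 to -0.32, limma adjusted p = 0.00331) and 59.2% of the wild-type level (-0.76, adjusted p = 6.97e-05). Neither comparison of the DREAM genotype was called: -0.12 in R6/2 x DREAM+/- against R6/2 (-0.33 to 0.09, limma adjusted p = 0.499) and -0.23 in DREAM+/- against wild type (-0.44 to -0.02, adjusted p = 0.287). By mean the order was R6/2 x DREAM+/- (10.34 ± 0.22), R6/2 (10.46 ± 0.07), DREAM+/- (10.87 ± 0.04) and wild type (11.10 ± 0.19; SD, n = 4 each), and only the step between R6/2 and DREAM+/- exceeded the spread without overlap. With the cortical marker mean as a covariate, R6/2 against wild type was -0.52 (-0.85 to -0.20) and no longer passed (limma adjusted p = 0.0643). R6/2 x DREAM+/- against DREAM+/- was -0.50 with it and passed (adjusted p = 0.00669). Every R6/2 array had a lower cortical marker mean than every array of the other genotypes. This covariate is therefore confounded in part with R6/2, and the Shank3 interval of R6/2 against wild type was wider with it.

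Dlgap3, the Dlgap family member most tied to the striatum, followed Shank3. Its probe set 1436381_at read 9.93, 10.29, 10.63 and 10.04 in R6/2 x DREAM+/-, 10.17, 10.34, 10.25 and 10.34 in R6/2, 10.56, 10.71, 10.63 and 10.58 in DREAM+/-, and 10.57, 10.89, 10.53 and 11.03 in wild type. All R6/2 arrays lay below all wild-type arrays, whereas R6/2 x DREAM+/- replicate 3 reached the DREAM+/- range. R6/2 held 71.7% of the wild-type level (-0.48, -0.75 to -0.21, limma adjusted p = 0.0196). That call was lost without R6/2 replicate 1, wild-type replicate 2 or wild-type replicate 4 (-0.44 to -0.39, adjusted p 0.0566 to 0.0614) and with the cortical marker covariate (-0.27, adjusted p = 0.511). The difference of R6/2 x DREAM+/- against DREAM+/- was -0.40 (adjusted p = 0.0765), and without R6/2 x DREAM+/- replicate 3 it was -0.53 and passed (adjusted p = 0.00501). Striatum of R6/2 x DREAM+/- held 69.1% of the wild-type level (-0.53, adjusted p = 0.00896). Against R6/2 it differed by -0.05 (adjusted p = 0.855), and the difference of DREAM+/- against wild type was -0.14.

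Shank3 and Dlgap3 also varied together from array to array within genotypes. After each genotype's mean was subtracted, their deviations on the 16 arrays had a Pearson r of 0.94 and a Spearman coefficient of 0.86, and r was 0.87 without the 2 arrays farthest from the median. Both genes were high on R6/2 x DREAM+/- replicate 3 and on wild-type replicates 2 and 4. The mean of the medium spiny neuron markers moved with them, with r = 0.76 for Shank3 and 0.80 for Dlgap3, and 0.54 and 0.61 without the 2 farthest arrays. These were among 120 pairs compared over 16 items, values that share an array share its RNA and its normalization, and no test was made of them. The genes whose levels tracked Shank3 most closely over all 16 arrays were Rhobtb2 (r = 0.985), Ccm2 (0.982) and Sec14l1 (0.980), and those for Dlgap3 were Prkcz (0.977), Coro2b (0.971) and Inf2 (0.971). Their deviations within genotypes correlated at 0.87 to 0.96.

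**Figure D2:**
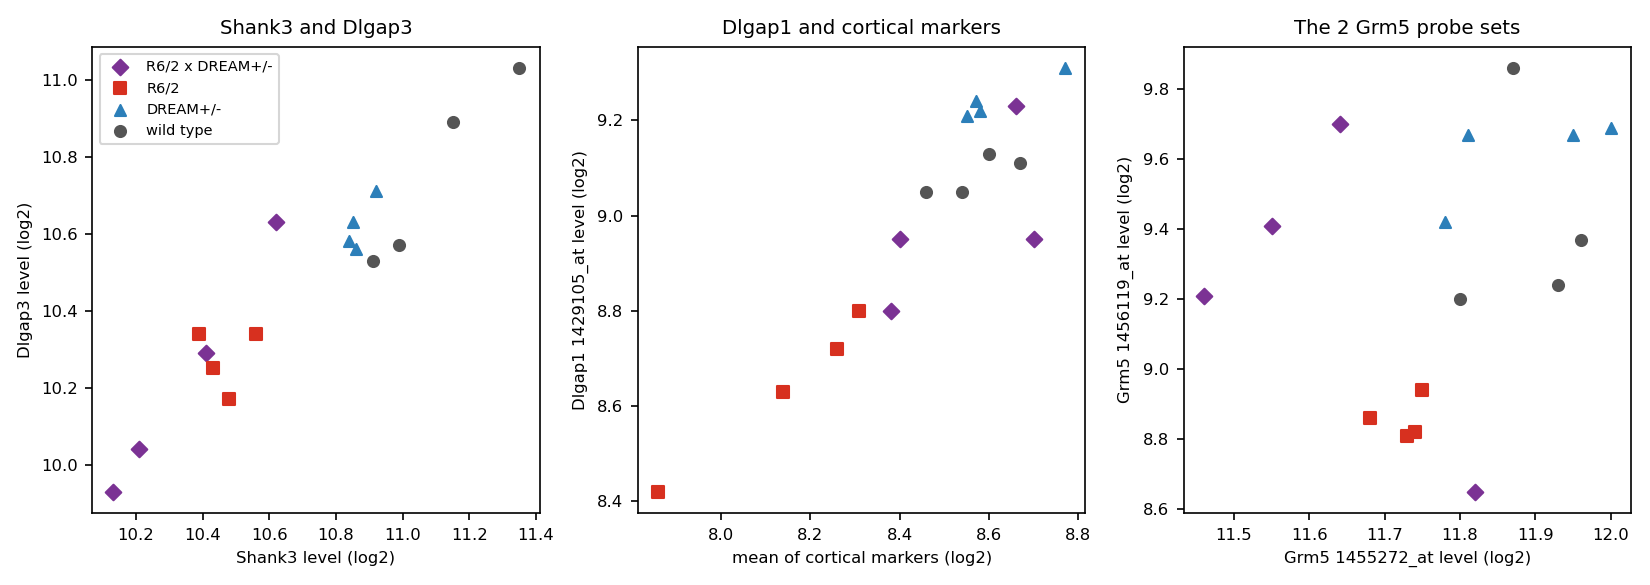
Each point is 1 array (log2 levels on both axes), coloured by genotype. Left, Dlgap3 against Shank3; middle, the Dlgap1 probe set 1429105_at against the mean of 11 cortical markers, where R6/2 replicate 1 is lowest on both axes (7.86 and 8.42); right, the Grm5 probe sets, where R6/2 x DREAM+/- replicate 3 is the highest of its genotype on 1 (11.82) and the lowest on the other (8.65).

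Dlg4, the receptor anchor, was lower with the transgene on both DREAM backgrounds, although the calls differed in how well they held. Its brightest probe set, 1419580_at, read 10.21, 10.07, 10.41 and 10.37 in R6/2 x DREAM+/-, 10.31, 10.12, 10.26 and 10.52 in R6/2, 10.57, 10.80, 10.84 and 10.63 in DREAM+/-, and 10.46, 10.73, 10.68 and 10.60 in wild type. There was no overlap between R6/2 x DREAM+/- and DREAM+/-, whereas R6/2 replicate 4 lay above wild-type replicate 1. On this probe set R6/2 x DREAM+/- held 73.5% of the DREAM+/- level (-0.45, limma adjusted p = 0.00767), a call kept under every alternative run. R6/2 held 80.4% of the wild-type level (-0.32, adjusted p = 0.0354), and this call was lost under 9 alternatives. Leaving out R6/2 replicate 1, 2 or 3 or wild-type replicate 2, 3 or 4 was enough to lose it (-0.32 to -0.25, adjusted p 0.0564 to 0.112). The genes most like this probe set over the 16 arrays were Nrtn (r = 0.924), Npas2 (0.918) and Smg5 (0.917).

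The other Dlg4 probe sets had the same sign in both R6/2 comparisons but did not pass in each. Probe set 1419581_at read 9.72, 9.24, 9.07 and 9.90 in R6/2 x DREAM+/-, 9.70, 9.60, 9.73 and 9.89 in R6/2, 10.08, 10.39, 10.43 and 10.11 in DREAM+/-, and 9.80, 10.14, 10.23 and 10.01 in wild type. On it R6/2 x DREAM+/- held 58.6% of the DREAM+/- level (-0.77, limma adjusted p = 0.00451), with no overlap, while R6/2 against wild type was -0.32 and did not pass (adjusted p = 0.194). The interaction on this probe set was -0.45 (-0.91 to -0.00), with an unadjusted p of 0.0481 and an adjusted p of 0.817. The dimmer 1460261_at averaged 6.29 in R6/2 x DREAM+/- and 6.49 in DREAM+/- (-0.20, adjusted p = 0.0949), and 6.46 in R6/2 and 6.52 in wild type (-0.07, adjusted p = 0.574). Against wild type, R6/2 x DREAM+/- was lower on all 3 Dlg4 probe sets, with log2 differences of -0.35, -0.56 and -0.23 (adjusted p = 0.0169, 0.0171 and 0.0275). Without R6/2 x DREAM+/- replicate 2 or wild-type replicate 2, the calls of both brighter sets were lost (adjusted p 0.0522 to 0.0596), and 1460261_at lost its call without R6/2 x DREAM+/- replicate 1 or 4 or wild-type replicate 2 or 4 (adjusted p 0.0598 to 0.0916). None of the 3 passed in R6/2 x DREAM+/- against R6/2 (-0.04, -0.25 and -0.16).

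**Figure D3:**
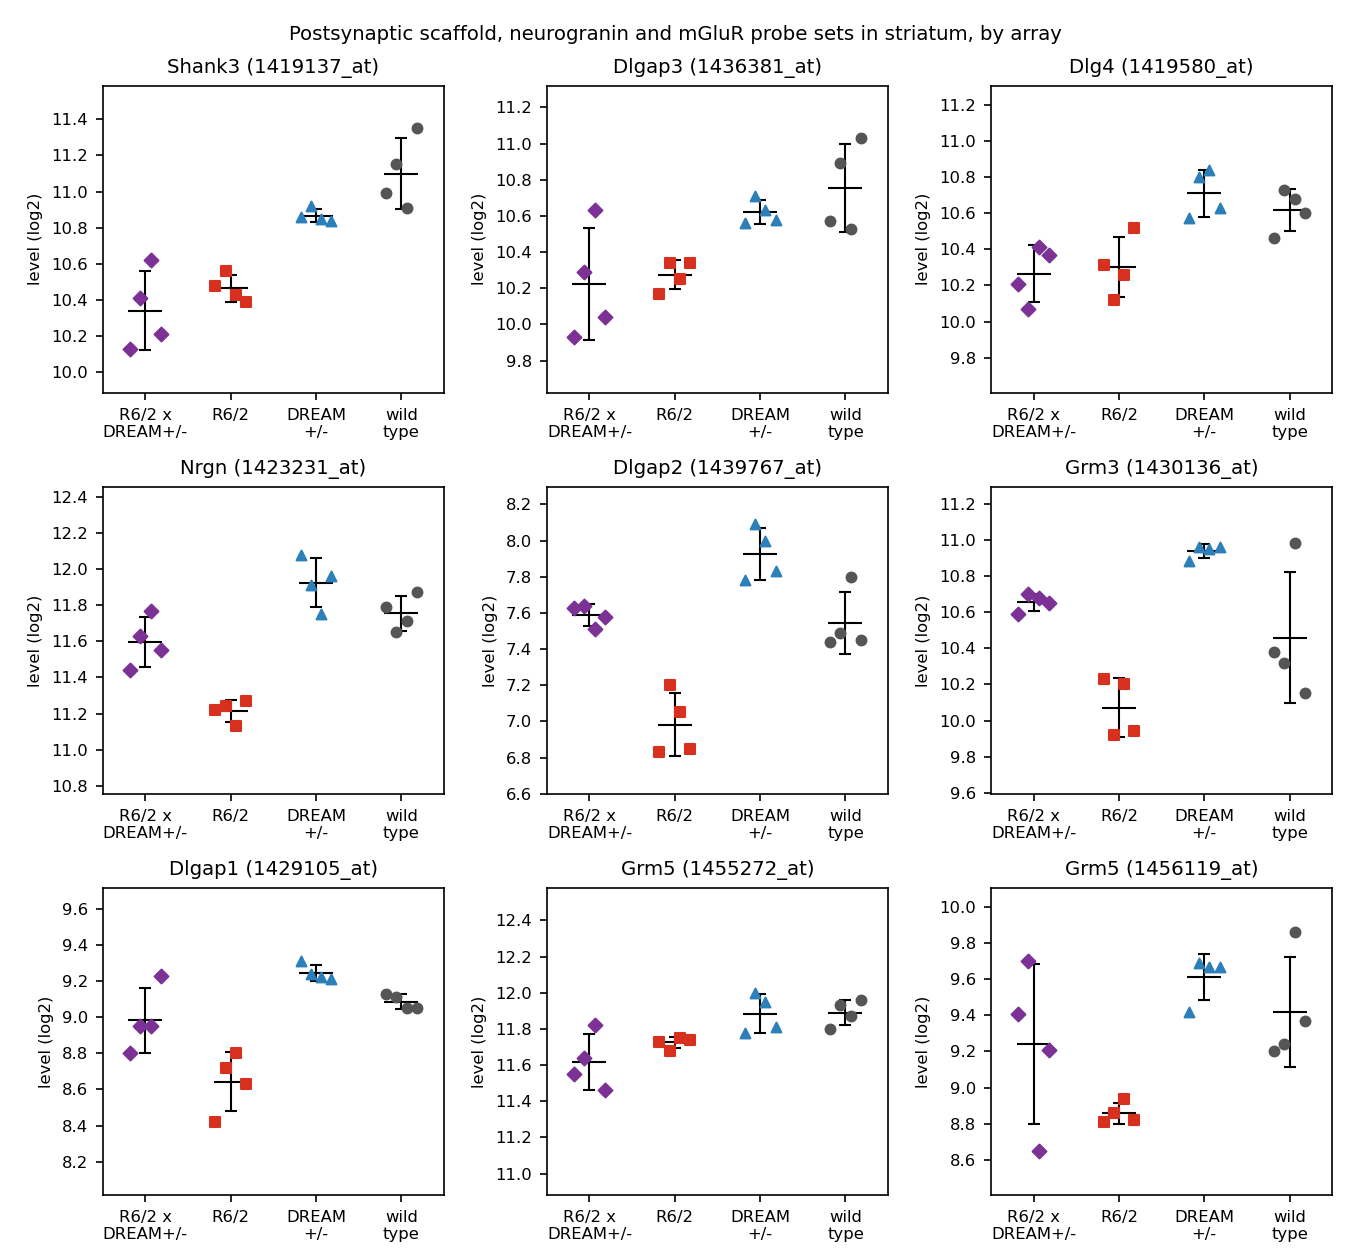
Level of 9 member probe sets on each array (log2, y axis) for R6/2 x DREAM+/-, R6/2, DREAM+/- and wild type; points are arrays, and bars are the mean ± SD of 4. For Shank3 and Dlgap3 both transgenic genotypes sit low, whereas for Nrgn, Dlgap2 and Grm3 every R6/2 x DREAM+/- array lies above every R6/2 array, and for Grm3 the R6/2 arrays overlap wild-type replicate 4 (10.15).

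Nrgn, neurogranin, was lowest in R6/2 and intermediate in R6/2 x DREAM+/-. Its probe set 1423231_at read 11.44, 11.63, 11.77 and 11.55 in R6/2 x DREAM+/-, 11.22, 11.24, 11.13 and 11.27 in R6/2, 12.08, 11.91, 11.75 and 11.96 in DREAM+/-, and 11.79, 11.65, 11.71 and 11.87 in wild type. Every R6/2 array lay below every array of the other genotypes. R6/2 held 68.8% of the wild-type level (-0.54, -0.70 to -0.38, limma adjusted p = 0.000192), and the call held under every alternative, with adjusted p up to 0.0413. Nrgn in R6/2 x DREAM+/- stood at 130% of the R6/2 level (0.38, 0.22 to 0.55, adjusted p = 0.00744). Against DREAM+/- it held 79.7% (-0.33, adjusted p = 0.0156), a call lost without R6/2 x DREAM+/- replicate 1 or DREAM+/- replicate 1 (-0.28, adjusted p 0.0594 to 0.0606). The difference between R6/2 x DREAM+/- and wild type was -0.16 and did not pass (adjusted p = 0.201), and DREAM+/- against wild type was 0.17 (adjusted p = 0.332). With the cortical marker covariate, R6/2 x DREAM+/- against R6/2 became 0.30 (0.06 to 0.55) and was not called (adjusted p = 0.162). Within genotypes Nrgn and the cortical marker mean correlated at r = 0.26, and 0.11 without the 2 farthest arrays. The genes most like Nrgn over the 16 arrays were Mprip (r = 0.954), Ryr2 (0.949) and Dclk1 (0.948).

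Dlgap2, another bridge between Dlg4 and Shank proteins, differed in the greatest number of comparisons. Its probe set 1439767_at read 7.63, 7.64, 7.51 and 7.58 in R6/2 x DREAM+/-, 6.83, 7.20, 7.05 and 6.85 in R6/2, 7.78, 8.09, 8.00 and 7.83 in DREAM+/-, and 7.44, 7.49, 7.80 and 7.45 in wild type. R6/2 lay below all other arrays, and DREAM+/- overlapped wild type only through wild-type replicate 3. R6/2 held 67.7% of the wild-type level (-0.56, -0.76 to -0.36, limma adjusted p = 0.000772). Dlgap2 in R6/2 x DREAM+/- stood at 152% of the R6/2 level (0.61, 0.41 to 0.81, adjusted p = 0.00129). Both calls held under every alternative run, the cortical marker covariate included (-0.57, adjusted p = 0.0416, and 0.62, adjusted p = 0.037).

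The difference of Dlgap2 between R6/2 x DREAM+/- and wild type did not pass the test (0.04, -0.16 to 0.25, limma adjusted p = 0.821). DREAM+/- alone stood at 130% of wild type (0.38, 0.18 to 0.58, adjusted p = 0.0464), and R6/2 x DREAM+/- held 79.3% of the DREAM+/- level (-0.34, adjusted p = 0.043). Both of those calls lay close to the threshold. With the cortical marker covariate both were lost (0.38, limma adjusted p = 0.0558, and -0.34, adjusted p = 0.0584). The Y-linked covariate also lost both, and the fit of only the 2 genotypes compared lost that of DREAM+/- against wild type. The call of DREAM+/- against wild type was lost on leaving out any 1 of 11 arrays (0.33 to 0.43, adjusted p 0.0503 to 0.157), namely each DREAM+/- replicate, R6/2 x DREAM+/- replicates 1, 2 and 4, R6/2 replicate 3 and wild-type replicates 1, 2 and 4, and without wild-type replicate 3 it was 0.46 (adjusted p = 0.00593). The call of R6/2 x DREAM+/- against DREAM+/- was lost on leaving out any 1 of 9 (-0.37 to -0.28, adjusted p 0.0524 to 0.151), namely each R6/2 x DREAM+/- replicate, DREAM+/- replicates 2, 3 and 4, R6/2 replicate 3 and wild-type replicate 2. Fam107a (r = 0.937) and Pcmtd1 (0.939) had the pattern most like Dlgap2 over the 16 arrays, with Garem1 next (0.932), but their deviations within genotypes correlated at only 0.34 to 0.61.

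Dlgap1, a further bridge between Dlg4 and Shank proteins, gave different answers on its 6 probe sets. On 1429105_at the levels were 8.80, 8.95, 8.95 and 9.23 in R6/2 x DREAM+/-, 8.42, 8.72, 8.80 and 8.63 in R6/2, 9.31, 9.24, 9.22 and 9.21 in DREAM+/-, and 9.13, 9.11, 9.05 and 9.05 in wild type. R6/2 lay below wild type and below DREAM+/- on every array. R6/2 held 73.6% of the wild-type level (-0.44, limma adjusted p = 0.00202), and R6/2 x DREAM+/- stood at 127% of the R6/2 level (0.34, 0.16 to 0.52, adjusted p = 0.0217). The level on this probe set moved with the cortical markers within genotypes (r = 0.80, Spearman coefficient 0.77), and with their mean as a covariate the differences were -0.15 (adjusted p = 0.426) and 0.07 (adjusted p = 0.743). The second call was also lost without R6/2 replicate 1, R6/2 replicate 4 or R6/2 x DREAM+/- replicate 4 (0.26 to 0.34, adjusted p 0.0568 to 0.0658). The difference of R6/2 x DREAM+/- against DREAM+/- was -0.26 (adjusted p = 0.0737) and passed without R6/2 replicate 1 or R6/2 x DREAM+/- replicate 4 (-0.34 to -0.26, adjusted p 0.0136 to 0.0442).

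The brighter 1436076_at read 9.84, 9.67, 10.10 and 9.94 in R6/2 x DREAM+/-, 9.84, 9.93, 9.92 and 9.79 in R6/2, 10.16, 10.08, 10.00 and 10.00 in DREAM+/-, and 10.20, 10.20, 10.02 and 10.20 in wild type. Both transgenic genotypes were lower than wild type (-0.27 for R6/2 x DREAM+/-, limma adjusted p = 0.0263, and -0.28 for R6/2, adjusted p = 0.0214), and they differed from each other by 0.02. The R6/2 call was lost without R6/2 replicate 1 or 4 or wild-type replicate 1 or 2 (-0.27 to -0.26, adjusted p 0.0531 to 0.0664) and with the cortical marker covariate (-0.05, adjusted p = 0.832). The R6/2 x DREAM+/- call was lost without its replicate 1 or 2 or wild-type replicate 1, 2 or 4 (-0.25 to -0.19, adjusted p 0.0635 to 0.0874), and R6/2 x DREAM+/- against DREAM+/- passed without R6/2 x DREAM+/- replicate 3 (-0.24, adjusted p = 0.0449). The brightest Dlgap1 probe set, 1453027_at, was -0.07 in R6/2 against wild type (limma adjusted p = 0.767). In R6/2 x DREAM+/- against R6/2 it was -0.01 (adjusted p = 0.967). Neither 1453027_at nor 1440639_at, the 2 further Dlgap1 probe sets at or above the 40th percentile, passed in any comparison. The remaining 2 were dim, and of these 1438098_at averaged 5.91 in R6/2 x DREAM+/- and 5.70 in wild type (0.22, adjusted p = 0.0388). That call was lost without any of 5 arrays (0.17 to 0.22, adjusted p 0.0504 to 0.112), which were R6/2 x DREAM+/- replicates 1 and 3, DREAM+/- replicate 3 and wild-type replicates 1 and 2. Which transcripts each Dlgap1 probe set reads is not stated in the labels.

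Grm3, the receptor mGluR3, was higher on every R6/2 x DREAM+/- array than on any R6/2 array. Its probe set 1430136_at read 10.59, 10.70, 10.68 and 10.65 in R6/2 x DREAM+/-, 10.23, 9.92, 10.20 and 9.94 in R6/2, 10.88, 10.96, 10.95 and 10.96 in DREAM+/-, and 10.38, 10.32, 10.98 and 10.15 in wild type. Wild-type replicate 3 lay at the DREAM+/- level, and the other wild-type arrays below both DREAM+/- genotypes. Grm3 in R6/2 x DREAM+/- stood at 150% of the R6/2 level (0.58, 0.31 to 0.85, limma adjusted p = 0.0113), a call that held under every alternative (0.53 to 0.74, adjusted p up to 0.0453). The remaining comparisons did not pass and lay open to the settings, single wild-type arrays among them. DREAM+/- against wild type was 0.48 (adjusted p = 0.0594) and passed under 5 alternatives, 1 of them leaving out an array: without wild-type replicate 3 it was 0.65 (adjusted p = 0.000127). R6/2 against wild type was -0.39 (adjusted p = 0.0551) and passed under 9 alternatives, both brightness filters and the Y-linked covariate among them. It was -0.21 without wild-type replicate 3 (adjusted p = 0.101) and -0.49 without wild-type replicate 4 (adjusted p = 0.0163).

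Without wild-type replicate 3, Grm3 was also higher in R6/2 x DREAM+/- than in wild type (0.37, limma adjusted p = 0.00368) and lower in R6/2 x DREAM+/- than in DREAM+/- (-0.28, adjusted p = 0.0264). With all arrays these differences were 0.20 (adjusted p = 0.349) and -0.28 (adjusted p = 0.226). The order by mean was R6/2 (10.07 ± 0.17), wild type (10.46 ± 0.36), R6/2 x DREAM+/- (10.65 ± 0.05) and DREAM+/- (10.94 ± 0.04; SD, n = 4 each). Neighbours overlapped except R6/2 x DREAM+/- and DREAM+/-. Astrocyte markers, listed because astrocytes also express Grm3, had means of 10.20 to 10.33 in R6/2 x DREAM+/-, 10.15 to 10.21 in R6/2, 10.37 to 10.39 in DREAM+/- and 10.30 to 10.42 in wild type over 12 genes. Of the 12, 2 were higher in R6/2 x DREAM+/- than in R6/2 (Gfap, 0.52, and Glul, 0.16) and 0 lower, where 2.91% of all genes were higher. The median of the 12 was 0.06, and S100b was -0.26 without passing (limma adjusted p = 0.0523). The part of astrocytes in the Grm3 difference was not tested.

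Grm5, the receptor mGluR5 that couples to phospholipase C and is held by Homer and Shank, had 2 probe sets that did not move alike. On the brighter, 1455272_at, levels were 11.55, 11.64, 11.82 and 11.46 in R6/2 x DREAM+/-, 11.73, 11.68, 11.75 and 11.74 in R6/2, 11.78, 12, 11.95 and 11.81 in DREAM+/-, and 11.80, 11.93, 11.87 and 11.96 in wild type. The differences were small: R6/2 x DREAM+/- held 83.1% of the DREAM+/- level (-0.27, limma adjusted p = 0.0311), and R6/2 against wild type was -0.16 (adjusted p = 0.149) although the 2 groups did not overlap. The first call was lost without R6/2 x DREAM+/- replicate 1, 2 or 4 or DREAM+/- replicate 2 or 3 (-0.27 to -0.21, adjusted p 0.0535 to 0.116). Against wild type, R6/2 x DREAM+/- held 82.8% (-0.27, adjusted p = 0.0151), which was -0.22 without R6/2 x DREAM+/- replicate 4 (adjusted p = 0.0555). Within genotypes this probe set moved with the medium spiny neuron marker mean (r = 0.88, Spearman coefficient 0.75, and r = 0.73 without the 2 farthest arrays).

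The dimmer 1456119_at read 9.41, 9.70, 8.65 and 9.21 in R6/2 x DREAM+/-, 8.81, 8.86, 8.94 and 8.82 in R6/2, 9.42, 9.69, 9.67 and 9.67 in DREAM+/-, and 9.20, 9.24, 9.86 and 9.37 in wild type. On it R6/2 held 67.8% of the wild-type level, with no overlap (-0.56, limma adjusted p = 0.0391). The call was lost on leaving out any R6/2 replicate, DREAM+/- replicate 2, 3 or 4 or wild-type replicate 3 or 4 (-0.59 to -0.41, adjusted p 0.05 to 0.115). With the cortical marker covariate the difference was larger, -1 (95% interval -1.49 to -0.52, adjusted p = 0.0206). The difference of R6/2 x DREAM+/- against R6/2 was 0.39 (adjusted p = 0.186), 0.58 without R6/2 x DREAM+/- replicate 3 (adjusted p = 0.0129) and 0.80 with the cortical marker covariate (adjusted p = 0.063). Within genotypes the Grm5 probe sets had a Pearson r of -0.25 and a Spearman coefficient of 0.01, and the Grm5 level is therefore given per probe set and not as 1 value.

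Shank1, a cortical and hippocampal relative of Shank3, read 5.71 to 6.05 over all 16 arrays on probe set 1444240_at, under the 40th percentile of brightness (6.354). Its means were 5.89 in R6/2 x DREAM+/-, 5.90 in R6/2, 5.87 in DREAM+/- and 5.91 in wild type, and no difference passed. At so low a signal a difference in Shank1 could not be assessed.

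The same 2 R6/2 comparisons were then read for further genes of the synapse, taking the brightest probe set of each gene, where 7.44% of all genes were lower and 8.22% higher in R6/2 against wild type, and 4.71% lower and 3.63% higher in R6/2 x DREAM+/- against DREAM+/-. Among 21 other scaffolds and anchors, 7 were lower and 0 higher in R6/2 (median -0.12), and 6 lower and 0 higher in R6/2 x DREAM+/- against DREAM+/- (median -0.07). Homer1, which joins Shank to group I receptors, was lower by 0.64 in R6/2 and by 0.55 in R6/2 x DREAM+/- (log2, limma adjusted p = 3.6e-07 and 3.57e-06). Kalrn, a regulator of dendritic spines, fell by 0.80 and by 0.49, and Baiap2, an actin regulator that binds Shank, by 0.48 and 0.55. Of 15 adhesion molecules and AMPA receptor partners, 5 were lower and 1 higher in R6/2, and 3 lower and 0 higher in R6/2 x DREAM+/- against DREAM+/-. Lrrtm1, a postsynaptic partner of neurexins, was -0.68 and -0.47, and Cacng3, an AMPA receptor auxiliary subunit, -0.44 and -0.58, whereas Cacng8 was 0.46 in R6/2 (adjusted p = 0.00537).

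In R6/2 against wild type, calls among genes of receptor signalling were nearly balanced, whereas most of the calmodulin and calcium-signalling genes were lower. Among 15 genes of metabotropic glutamate signalling, 3 were lower and 2 higher in R6/2 against wild type, and 4 lower and 0 higher in R6/2 x DREAM+/- against DREAM+/-. Rgs4, which shortens Gq and Gi signalling, was -1.01 and -0.76, and Plcb1, a phospholipase C driven by Gq, was -0.48 and -0.37, while Grip1, an AMPA receptor anchor, was 0.49 in R6/2 (limma adjusted p = 0.00979). Of 4 other metabotropic receptors on the array, Grm4 (-0.53, adjusted p = 0.00371) and Grm8 (-0.26, adjusted p = 0.0381) were lower in R6/2, and 0 passed in R6/2 x DREAM+/- against DREAM+/-. Among 9 calmodulin and calcium-signalling genes, 6 were lower and 1 higher in R6/2, and 4 lower and 0 higher in R6/2 x DREAM+/- against DREAM+/-. Camkk2, a calmodulin-dependent kinase kinase, was -0.80 and -0.77, Pcp4, which like Nrgn has an IQ motif that binds calmodulin, was -0.49 and -0.46, and Gap43, a presynaptic relative of Nrgn, was 0.28 in R6/2 (adjusted p = 0.00307).

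The same lists were read for the DREAM genotype. Between R6/2 x DREAM+/- and R6/2, where 2.91% of all genes were higher and 4.73% lower, 4 of 21 scaffolds and anchors were higher and 2 lower. Kalrn was higher by 0.40, Lin7c by 0.62 and Sipa1l1, a spine regulator that binds Dlg4, by 0.30, and Baiap2 was lower (-0.24, limma adjusted p = 0.0253). Rgs4 (0.35) and Plcb1 (0.18) were higher and Gnai2 lower (-0.43) among 15 signalling genes. Of 15 adhesion molecules and AMPA receptor partners, Nrxn3, a presynaptic neurexin, was higher (0.17, adjusted p = 0.0348) and Cacng3 lower (-0.25, adjusted p = 0.0371). Of the calmodulin genes 0 of 9 passed, and of the other metabotropic receptors 0 of 4. In DREAM+/- against wild type, where 0.929% of all genes were higher and 1.17% lower, Lin7c, a partner of Cask in the scaffold, was the only gene of these lists that passed (0.69, adjusted p = 0.00154).

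Markers of several cell types also differed between the genotypes. Over all genes, 7.44% were lower and 8.22% higher in R6/2 against wild type. In R6/2 x DREAM+/- against DREAM+/- the shares were 4.71% lower and 3.63% higher, and in R6/2 x DREAM+/- against R6/2 4.73% lower and 2.91% higher. In R6/2 against wild type 6 of 11 cortical markers were lower and 0 higher, and in R6/2 x DREAM+/- against R6/2 5 of 11 were higher and 0 lower. Slc17a7, the vesicular glutamate transporter of cortical neurons, was -0.92 in R6/2 against wild type and 1.02 in R6/2 x DREAM+/- against R6/2, and Neurod6 was -0.95 and 0.87. Of the 11, 0 passed in R6/2 x DREAM+/- against DREAM+/-. Medium spiny neuron markers differed in layout, with 13 of 15 lower in each R6/2 comparison and 0 higher and 1 lower in R6/2 x DREAM+/- against R6/2. Astrocyte markers gave 4 of 12 lower and 1 higher in R6/2 against wild type, and 2 lower in R6/2 x DREAM+/- against DREAM+/-. Oligodendrocyte markers gave 4 of 9 lower in R6/2 against wild type, Mal (-0.50) and Ugt8a (-0.60) among them, and 3 of 9 lower in R6/2 x DREAM+/- against DREAM+/-. Microglia markers, with means of 8.92 to 8.98 in R6/2 x DREAM+/-, 8.66 to 8.82 in R6/2, 8.96 to 9.02 in DREAM+/- and 8.68 to 8.93 in wild type over 10 genes, gave 3 higher in R6/2 x DREAM+/- against R6/2. C1qb, a complement subunit made by microglia, was 0.55 there (limma adjusted p = 0.000118) and 0.41 in DREAM+/- against wild type (adjusted p = 0.00271). Against wild type, R6/2 x DREAM+/- had 5 of 10 microglia markers higher and 1 lower, where 7.19% of all genes were higher and 9.73% lower. The part of glial RNA in the members' differences was not tested. With the cortical marker covariate, the differences of R6/2 x DREAM+/- against R6/2 were 0.62 for Dlgap2, 0.74 for Grm3 and 0.30 for Nrgn (not called). Without it they were 0.61, 0.58 and 0.38. Dlgap1 on 1429105_at was 0.07 with it (not called) and 0.34 without it. Every R6/2 array had a lower cortical marker mean than every array of the other genotypes. The covariate is therefore confounded in part with this comparison, and the part of cortical RNA cannot be told apart from the genotype.

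**Figure D4:**
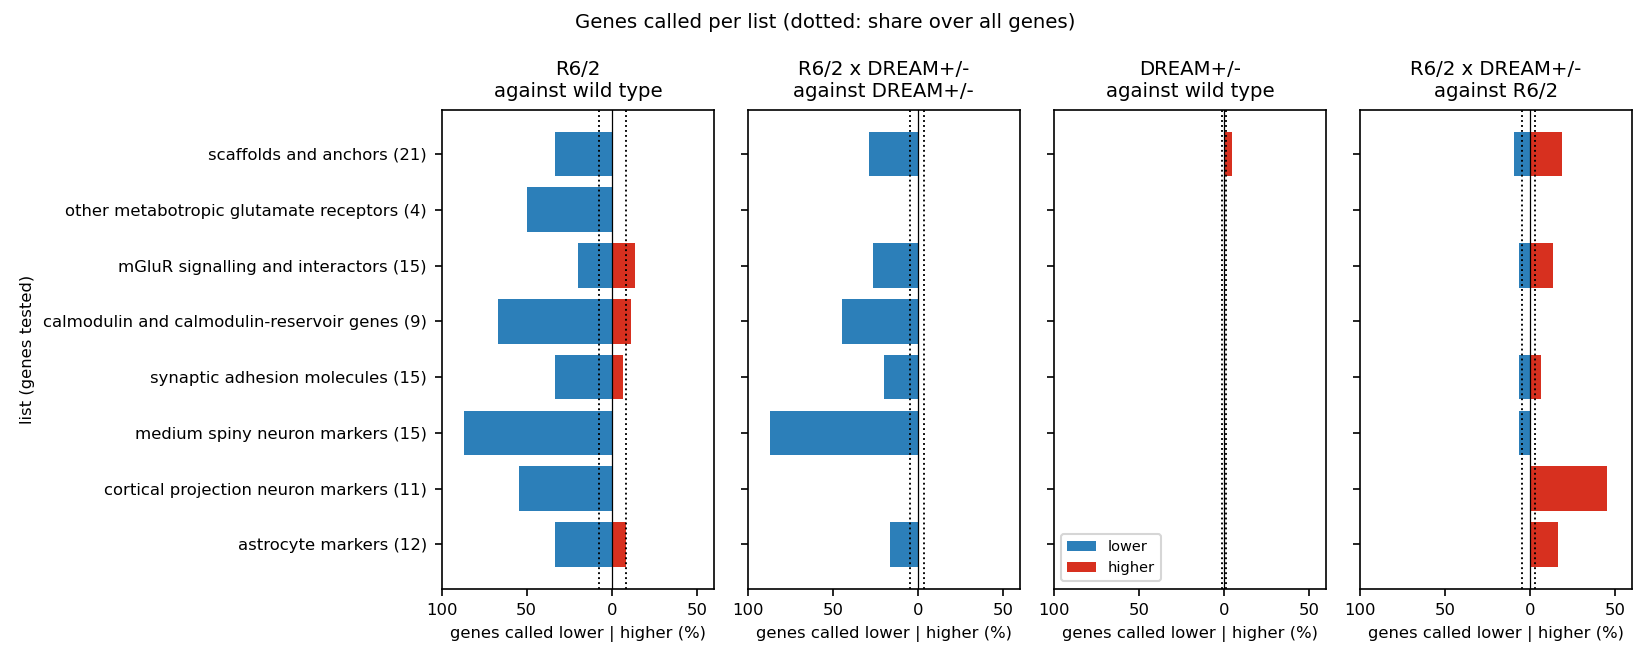
Share of the tested genes of each list called lower (left of 0) or higher (right of 0) in 4 comparisons (percent, x axis), 1 probe set per gene, with the share over all genes dotted. Medium spiny neuron markers were lower in both R6/2 comparisons (13 of 15 each), and cortical markers were lower in R6/2 against wild type (6 of 11) and higher in R6/2 x DREAM+/- against R6/2 (5 of 11).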

How the data were processed

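Whole-striatum RNA was measured on 1-colour Affymetrix arrays. The deposited file is 1 table of log2 values per probe set (3.34 to 14.71), for which the submitters' processing notes name RMA and affy without versions. RMA brings arrays to 1 distribution, and a shift common to most probe sets is lost in it. The labels name no genome build. Groups and replicate numbers came from the sample titles. The labels speak of biological replicates but not of separate animals, so p-values measure the spread between these samples on each probe set. Arrays of the same genotype correlated at r = 0.9906 to 0.998 across the probe sets with 1 symbol, which is not a measure of that spread. With 4 arrays per genotype, their number limits the precision.

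Of 45101 probe sets, 34945 had 1 symbol in the supplied platform annotation, 932 several, 9160 none, and 64 were controls. Limma 3.58.1 in R 4.3.3 (lmFit, eBayes) was fitted to these 34945, without a brightness filter, with 1 mean per genotype over 16 arrays. Calls were made at an adjusted p under 0.05 (Benjamini-Hochberg over all 34945). Dim means a mean under the 40th percentile (6.354). The fit was tested on simulated data. Alternatives were brightness filters, 2 normalizations, a trended and robust variance, array weights, the 2 compared genotypes only, a replicate block, cortical and Y-linked covariates, 1 probe set per gene, and leaving out arrays.

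Members and lists were chosen with earlier results of these data known. Named genes were every member, up to 4 genes per list and comparison with the smallest p, the 3 genes most like the brightest probe set of each member gene where that probe set was called in R6/2 against wild type (among probe sets at or above the median brightness, 7.024), and Kcnip3. Promoters came from RefSeq (GRCm38.p6).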

Additional observations from a re-analysis of the deposited data

Results flagged for a closer look

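In 68 groups of 4 arrays, 1 for each member probe set and genotype, 6 held an array whose gap to the next was above Dixon's 95% critical value, where chance gives about 1 in 20. Of these, 3 were wild-type replicate 3. It read 7.80 for Dlgap2, against 7.44 to 7.49 on the other wild-type arrays. It read 10.02 for Dlgap1 on 1436076_at, where the others read 10.20, and 6.26 for the dim Dlgap1 probe set 1443508_at, where the others read 5.92 to 5.95. DREAM+/- replicate 1 was low for Grm3 (10.88, against 10.95 to 10.96) and for Grm5 on 1456119_at (9.42, against 9.67 to 9.69). R6/2 x DREAM+/- replicate 2 read 5.82 for the dim Shank1 probe set, against 5.92 on the others.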

How the results depend on the processing

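Of 102 member differences, 27 were called, 8 of them under every alternative, 10 uncalled ones passed under at least 1 alternative, and 0 reversed. In R6/2 against wild type, the members called lower numbered 8, 3 with the cortical marker covariate and 4 to 8 on leaving out 1 array. In R6/2 x DREAM+/- against DREAM+/- they numbered 6, and 3 to 7 on leaving out 1 array. In R6/2 x DREAM+/- against R6/2, 4 were higher, 2 with the cortical marker covariate and 3 to 5 on leaving out 1 array, and 0 were lower, 1 without both R6/2 replicate 1 and R6/2 x DREAM+/- replicate 3. In DREAM+/- against wild type, 1 was higher, 0 with the 60th percentile filter, with the 2 genotypes only and with the Y-linked covariate, 2 with array weights, with the replicate block and with 1 probe set per gene, and 0 to 2 on leaving out 1 array. In R6/2 x DREAM+/- against wild type, 7 were lower, 2 with the 2 genotypes only, 4 of 9 with 1 probe set per gene and 3 to 7 on leaving out 1 array. The 1 higher there, a dim probe set, was 0 under both filters, both normalizations, the trended and robust variance, the 2 genotypes only, the replicate block, 1 probe set per gene and without both arrays, and 0 to 2 on leaving out 1 array. The cause of these changes was not tested, apart from fewer probe sets or arrays where the alternative removes them. The cortical marker mean was lower on every R6/2 array than on every array of the other genotypes. In comparisons with R6/2, a part of cortical RNA and a loss of precision from this covariate cannot be told apart. Replicate numbers did not pair samples: same-numbered arrays of different genotypes deviated from their genotype means with r = -0.471 to 0.33 over 24 pairs, and not every array correlated best with its own number. The replicate block changed these calls of members: Grm3 passed in R6/2 and in DREAM+/- against wild type, and Grm5 on 1456119_at and Dlgap1 on 1438098_at did not pass.

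Over all probe sets, R6/2 against wild type called 4599, and 1562 with the cortical marker covariate, and R6/2 x DREAM+/- against R6/2 called 2711, and 898 with it, 1749 with the 2 genotypes only, and 1410 to 3971 on leaving out 1 array (1410, 1757 and 1761 without R6/2 replicate 4, 2 and 1, 1483 and 3971 without R6/2 x DREAM+/- replicate 2 and 3). DREAM+/- against wild type called 790, and 423 to 1403 on leaving out 1 array (423 to 504 without 1 DREAM+/- replicate, 463 and 1403 without wild-type replicate 2 and 3), 1550 with array weights, 491 with the 60th percentile filter and 521 with the Y-linked covariate. R6/2 x DREAM+/- against DREAM+/- called 2420, and 3741 with array weights and 1372 and 1532 without DREAM+/- replicate 2 and 3. R6/2 x DREAM+/- against wild type called 5454, and 2785 with the 2 genotypes only. Signal limits Shank1 and 2 of the Dlgap1 probe sets, which lay under the 40th percentile.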
